A study of Homo sapiens with 10 samples.

Results

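The genes described here are 10 imprinted genes outside chromosome 11: DLK1, MEG3, PEG3, ZIM2, PEG10, SGCE, GNAS, MEST, SNRPN and NDN. They were chosen by name, 10 of the 62062 genes that GENCODE 44 annotates on chromosomes 1 to 22 and X, and each was taken as its gene body plus 20 kb on each side. They belong to 6 imprinted domains (DLK1-MEG3 on chromosome 14, PEG3-ZIM2 on chromosome 19, PEG10-SGCE and MEST on chromosome 7, GNAS on chromosome 20, SNRPN-NDN on chromosome 15). Where windows overlap they were joined, which left 8 windows of 874.6 kb in all.

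Chromatin immunoprecipitation and sequencing (ChIP-seq) was used in HEK293T, a human embryonic kidney cell line, to map the DNA-binding protein CTCF and 3 histone marks. Cells were transduced with lentivirus carrying a non-targeting shRNA (CT, endogenous CGGBP1), an shRNA that silences CGGBP1 (KD) or a construct that overexpresses CGGBP1 (OE). The CT and KD cells were selected with puromycin. CTCF was mapped in CT, KD and OE on unmasked and on repeat-masked reads, H3K4me3, H3K9me3 and H3K27me3 were mapped in CT and KD, and 1 input was sequenced, from which of these cells the sources used here do not say. There was 1 library per condition, so that no difference between CT, KD and OE has a replicate check and none was tested.

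An imprinted gene is transcribed mainly from the copy inherited from 1 parent, and the choice is carried by DNA methylation laid down at a control region in the egg or the sperm. CTCF binds several such regions on the unmethylated copy only, where it can block an enhancer or organize a chromatin loop. H3K4me3 marks active promoters and, in imprinted domains, usually the unmethylated copy, whereas H3K9me3 is known from the methylated one and H3K27me3 from repressed promoters. The lists used here do not separate the parental copies, so that a peak may stem from either or both.

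The motifs of the CTCF peaks at DLK1-MEG3 and GNAS are shown on the strand that holds them, read 5′ to 3′ from hg38. They had the highest scores among sites that CT and KD did not share on unmasked reads. The 14 bases of the motif are in capitals with 8 flanking bases on each side, and the score is in bits of a CTCF matrix learned from these lists. They are shown because the unmasked lists of CT, KD and OE differed at these sites. The third site had a peak in the repeat-masked lists of CT, KD and OE alike.
MEG3 exon, plus strand, 22.72 bits, peaks in KD and OE: ggttttgcCCACCAGGGGGCAGcagagggt
GNAS-AS1 start, minus strand, 18.43 bits, peak in CT: tgggaggtCCAATAGGGGGCGCcgcgttgg
GNAS intron, plus strand, 17.91 bits, peaks in KD, OE and all 3 repeat-masked lists: gctcctccCCACCAGAGGTCAGcagagagc

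A second set of matches of similar or higher score lay under no CTCF peak of the 6 lists. They are shown because they sit in or near known control regions or carry high scores, and were chosen after their values were seen.
PEG3, intron 3.15 kb downstream of the shared PEG3 and ZIM2 start, minus strand, 20.79 bits: ccttacttCCTCCAGGGGGCGCcaaagcca
ZIM2, coding exon, plus strand, 20.14 bits: cctgggacCCAGCAGATGGCAGattgtcta
MEG3, CpG island 2.12 kb downstream of the main start, minus strand, 20.49 bits: ggcacacaCCGCTAGGGGGCGCgcggcccg
MEG3, the same island 1.19 kb downstream of the main start, plus strand, 17.63 bits: ctggctggCCGCGAGAGGGCGCtggcggca
DLK1, CpG island 17.0 kb upstream, plus strand, 20.11 bits: aacgcgcgCCGGCAGGGGGCGCggcgggct
GNAS-AS1, intron 19.7 kb upstream of the NESP55 start, minus strand, 21.09 bits: gcccctccCCACTAGATGGCACggccgcag

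Few peaks of any list lay at the 10 genes. Of unmasked CTCF peaks there were 7 from CT, 5 from KD and 6 from OE, and of repeat-masked ones 7, 2 and 2, and H3K4me3 had 12 peaks in CT and 15 in KD. H3K9me3 had 2 peaks in CT and 0 in KD, and H3K27me3 and the input had none. Per Mb of window, this came to 8.0 (CT), 5.72 (KD) and 6.86 (OE) unmasked CTCF peaks, where the lists held 14.3, 15.8 and 15.8 per Mb over the genome. For H3K4me3 the densities were 13.7 in CT and 17.2 in KD, against 25.4 and 27.1 over the genome. No peak at a member overlapped an input peak.

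**Figure D1:**
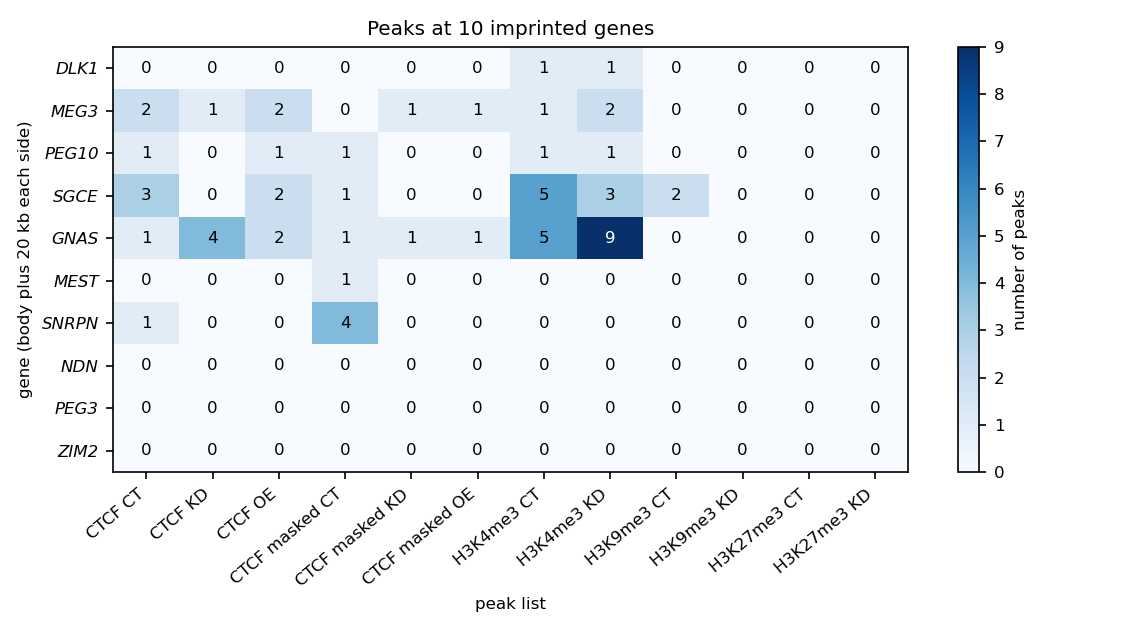
Number of peaks of each of 12 lists (columns) at each of the 10 imprinted genes (rows, gene body plus 20 kb each side). A peak in overlapping windows, as at PEG10 and SGCE, is counted for both genes. NDN, PEG3 and ZIM2 have 0 in every list, and the highest count is the 9 H3K4me3 peaks of KD at GNAS.

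Unmasked CTCF peaks of CT lay in 5 of the 10 windows, of KD in 2 and of OE in 4. Over the 19970 protein-coding genes with windows made in the same way, 74.1% had a CTCF peak of the CT list, 81.3% of the KD list and 78.7% of the OE list, and the members' shares lay below these. Repeat-masked CTCF peaks lay in 5 member windows for CT, 2 for KD and 2 for OE, against 65.4%, 67.4% and 62.2%. H3K4me3 lay in 5 member windows in CT and 5 in KD, against 90.8% and 91.6% of protein-coding genes. H3K27me3 and the input lay in 0 member windows, against 5.56% (H3K27me3 in CT), 3.61% (H3K27me3 in KD) and 1.74% (input). At these shares 0 of 10 genes is the only count that can lie below, so these lists show no shortfall. PEG3, ZIM2 and NDN held no peak of any of the 12 lists, as did 2.54% of protein-coding genes. DLK1, PEG3, ZIM2, MEST and NDN held no peak of the 3 unmasked CTCF lists, as did 9.71%. The member windows were not shorter, with a median of 88.4 kb against 67.5 kb. Members that share a window or a start (PEG3 with ZIM2, PEG10 with SGCE) are not separate observations.

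**Figure D2:**
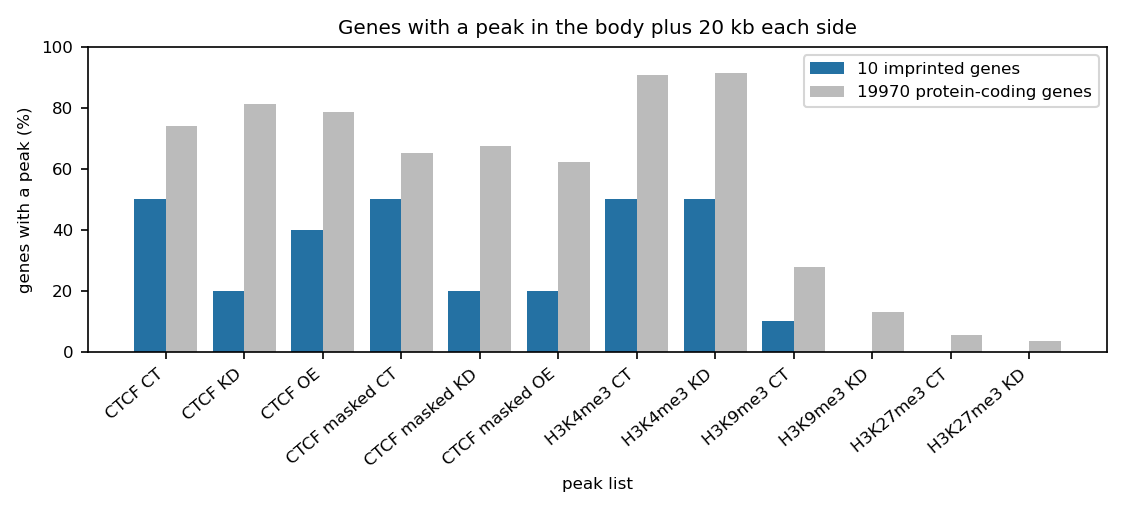
Percentage of the 10 imprinted genes and of 19970 protein-coding genes with at least 1 peak in the gene body plus 20 kb each side, for each of 12 peak lists. With 10 genes a bar moves in steps of 10%, and the imprinted genes lie below the protein-coding genes in every list.

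To see which conditions shared CTCF occupancy, peaks of the 3 unmasked lists that overlap by at least 1 bp were joined into sites. The members held 16 sites. Of these, 7 were held by CT alone, where 23.5% of all 82867 sites of the genome were, 3 by KD alone (genome 17.8%), 4 by OE alone (genome 19.3%) and 2 by KD and OE without CT (genome 12.7%). No member site was held by CT, KD and OE together, a class that made up 21.6% of sites over the genome, and none by CT with only KD or only OE. Thus no unmasked CTCF peak of CT at these genes recurred in KD or OE. Between CT and KD, 7 sites were held by CT and not KD (genome 25.2%) and 5 by KD and not CT (genome 30.5%). With a flank of 50 kb in place of 20 kb the order turned, with 7 and 10 sites. A CTCF motif (p below 0.0001) lay in 7 of the 16 sites, 43.8% with an exact 95% interval of 19.8 to 70.1 that covers counting error only, and in 45.3% of all sites. A strong motif (p below 0.00001) lay in 4 of the 16 sites and in 32.3% of all sites. Of the 7 sites of CT alone, 2 had a motif, and both sites shared by KD and OE had one. Bases in 24-mers that occur at least 10 times in the genome, taken here as repeated, were present in 5 of the 16 sites, 4 of them in CT alone, against 43.2% of all sites and 55.9% of the sites of CT alone.

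On repeat-masked reads the members held 8 sites. Of these, 6 were held by CT alone, where 30.7% of the 37415 masked sites of the genome were, and none of the 6 had a CTCF motif. The other 2 sites, in a GNAS intron and a MEG3 exon, both had one. Of the 7 repeat-masked CT peaks at members, 4 had exactly the narrowest width in that list, 211 bp, which 36.8% of its peaks share. Within 4 bp of that width lay 6 of the 7, and 47.3% of the list. The part of such narrow peaks in the CT-only counts was not tested.

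GNAS encodes the stimulatory G protein alpha subunit (Gs-alpha) and, from alternative starts, the neuroendocrine protein NESP55, the extra-large variant XL and the untranslated A/B transcript, and the antisense transcript GNAS-AS1 starts between the NESP55 and XL starts and runs past the former. Its window (gene body chr20:58839718-58911192) held 18 strong motif matches, 4 of them under a CTCF peak, the highest number of any of the 6 domains. In CT the only unmasked CTCF peak, chr20:58850676-58851060, lay over the GNAS-AS1 start in a CpG island of 727 bp and contained the 18.43-bit motif. Neither KD nor OE had a CTCF peak there, whereas H3K4me3 covered the same start in both CT (1309 bp) and KD (1398 bp). The XL start lies 2.2 kb from that CTCF peak and had no peak over it in any list.

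In KD, CTCF peaks lay at 4 other places along GNAS. The peak at chr20:58864451-58864695, 11.2 kb downstream of the XL start, held the 14.65-bit motif and was found in KD alone. The intronic site chr20:58870269-58870586, 17.0 kb downstream of the XL start, was called in KD (313 bp), in OE (260 bp) and in all 3 repeat-masked lists (CT 211 bp, KD 253 bp, OE 223 bp), so that the unmasked CT list was the only CTCF list without it. It was the only member site at which the repeat-masked lists of CT, KD and OE all had a peak, a class of 33.4% over the genome. The repeat-masked CT peak had exactly the narrowest width of its list and was among the peaks from which the CTCF matrix was learned. An H3K4me3 peak of 381 bp lay over the site in KD and none in CT. The core common to the 5 peaks, chr20:58870365-58870571 on the plus strand with the motif in capitals, reads as follows.
GNAS intron core: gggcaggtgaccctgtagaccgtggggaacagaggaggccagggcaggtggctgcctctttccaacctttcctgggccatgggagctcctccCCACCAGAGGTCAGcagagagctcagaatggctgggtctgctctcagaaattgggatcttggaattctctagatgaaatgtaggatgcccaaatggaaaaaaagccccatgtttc
Another KD peak, 7.8 kb upstream of the A/B start, held a motif of 11.77 bits below the strict threshold. The remaining KD peak, 30.9 kb downstream of the Gs-alpha start and beyond the gene's end, held none. In OE, a motif-free peak of 320 bp lay 2.28 kb downstream of the Gs-alpha start. Its midpoint lay 0.76 kb downstream of another annotated GNAS start.

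GNAS had 5 H3K4me3 peaks in CT and 9 in KD, each CT peak having a KD counterpart. Over the NESP55 start it covered 862 bp in CT and 1218 bp in KD. A peak at the 5′ edge of the island of 4447 bp measured 651 bp in CT and 665 bp in KD. That island holds the A/B and Gs-alpha starts. The peak ended 0.285 kb (CT) and 0.289 kb (KD) short of the A/B start used here (GNAS-233). Another annotated GNAS start lay under it in both, 77 bp (CT) and 66 bp (KD) from its midpoint. Downstream of the Gs-alpha start CT had 1 peak of 1516 bp where KD had 2 of 440 and 891 bp, and a further KD peak of 192 bp lay 0.497 kb upstream of that start. Toward the 3′ end of the gene, a peak of 1449 bp in CT was matched by one of 1509 bp in KD. A peak of 187 bp, 10.7 kb upstream of the A/B start, was found in KD alone. The Gs-alpha start itself, with 81.1% GC in 1 kb, lay under no H3K4me3 peak in CT or KD. Of the canonical starts of protein-coding genes with a peak within 2 kb, 57.1% lay under one in CT and 59.8% in KD.

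**Figure D3:**
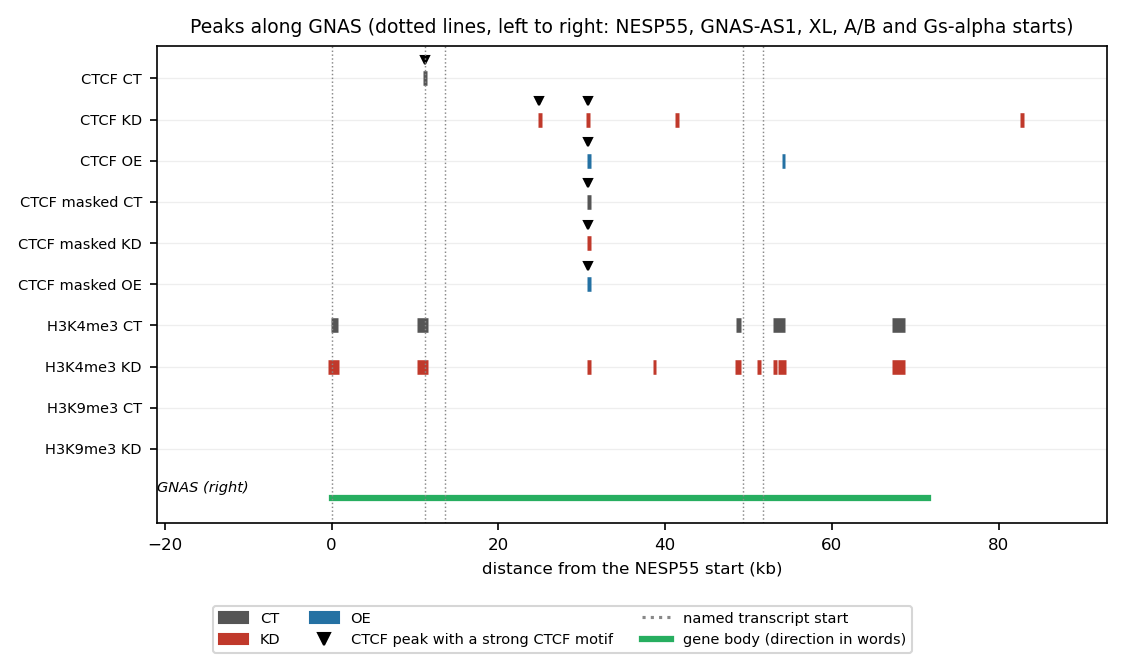
Peaks of 10 lists along GNAS by distance in kb from the NESP55 start, which runs to the right. Triangles mark CTCF peaks with a motif at the strict threshold (p below 0.00001), dotted lines the 5 named starts, and very narrow peaks are drawn at a minimum width. The CT peak at the GNAS-AS1 start has no KD or OE counterpart, and 5 CTCF lists share the site 17.0 kb downstream of the XL start.

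DLK1, a transmembrane protein of the Notch ligand family expressed from the paternal copy, and MEG3, a maternally expressed long non-coding RNA, share a domain controlled from an intergenic region between them and from the MEG3 promoter. The DLK1 window held no CTCF peak of any list. At MEG3, CT had a CTCF peak of 252 bp 18.3 kb upstream of the upstream start, all of whose bases were repeated, and a motif-free peak of 318 bp 20.3 kb upstream of the main start. OE had a peak of 229 bp 4.02 kb upstream of the main start with a motif of 9.43 bits. None of these 3 recurred in another list.

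The remaining site lay in a MEG3 exon at chr14:100851146-100851473, 25038 bp downstream of the main start, and held the 22.72-bit motif, the highest score among the 115 strong matches at the members. It was called in KD (324 bp) and OE (224 bp) on unmasked reads and in KD (250 bp) and OE (161 bp) on repeat-masked reads, and in neither CT list. No base of it was repeated. The core common to the 4 peaks, chr14:100851253-100851413 on the plus strand, is given with the motif in capitals.
MEG3 exon core: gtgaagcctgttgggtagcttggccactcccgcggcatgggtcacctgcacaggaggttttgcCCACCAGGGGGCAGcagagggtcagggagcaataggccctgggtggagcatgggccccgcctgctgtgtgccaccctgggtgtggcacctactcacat
This exon site was 1 of 45 strong matches in the domain and the only one under a CTCF peak. The matches of 20.49 and 17.63 bits lay 2.12 and 1.19 kb downstream of the main start, in a CpG island apart from the one at that start. No peak of any list lay over them.

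H3K4me3 was not found at the DLK1 start or at either MEG3 start in CT or KD, although the DLK1 start has 114 CpG in 1 kb. It lay instead in a CpG island 17.1 kb upstream of DLK1 in CT (354 bp) and 17.0 kb upstream in KD (378 bp), beside the 20.11-bit match that lay under no CTCF peak. A second group lay between the genes, with 1 peak in CT 16.6 kb and 2 in KD 16.8 and 17.4 kb upstream of the upstream MEG3 start.

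PEG10, derived from a retrotransposon and expressed from the paternal copy, and SGCE, which encodes epsilon-sarcoglycan, are transcribed in opposite directions from 1 CpG island of 2318 bp. A peak of H3K4me3 lay over the SGCE side of this island and the bases beyond it, measuring 1354 bp in CT and 1345 bp in KD and starting 0.334 kb and 0.229 kb downstream of the SGCE start. CTCF was found here in CT and OE and not in KD. The CT peak nearest the shared promoter, chr7:94652749-94653238, lay 2.9 kb downstream of the SGCE start in an intron and was also called in CT on repeat-masked reads (402 bp). The other 2 CT peaks lay 81.4 and 121 kb into SGCE and had repeated bases over 55.8% and 28.5% of their length. The 2 OE peaks lay 6.25 and 24.4 kb downstream of the canonical SGCE start and measured 212 and 221 bp. The 221 bp peak had its midpoint 1.71 kb upstream of another annotated SGCE start. None of these 5 sites held a CTCF motif, and the 9 strong matches of the domain lay under no CTCF peak.

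An H3K4me3 peak of 352 bp at SGCE exons 34.9 kb downstream of its canonical start was found in CT alone, as was one of 396 bp in an intron of the neighbour CASD1. The promoter of CASD1, a sialic acid acetyltransferase at the far end of SGCE, kept 2 H3K4me3 peaks in CT (651 and 999 bp) and 2 in KD (701 and 1011 bp). The only H3K9me3 peaks at the 10 genes, of 161 and 172 bp, lay 116 and 98.9 kb downstream of the SGCE start in introns and were found in CT alone. H3K9me3 lay in 1 member window in CT and 0 in KD, against 28.0% and 13% of protein-coding genes. The KD list of this mark was also shorter over the genome, with 8356 peaks against 14546 in CT.

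**Figure D4:**
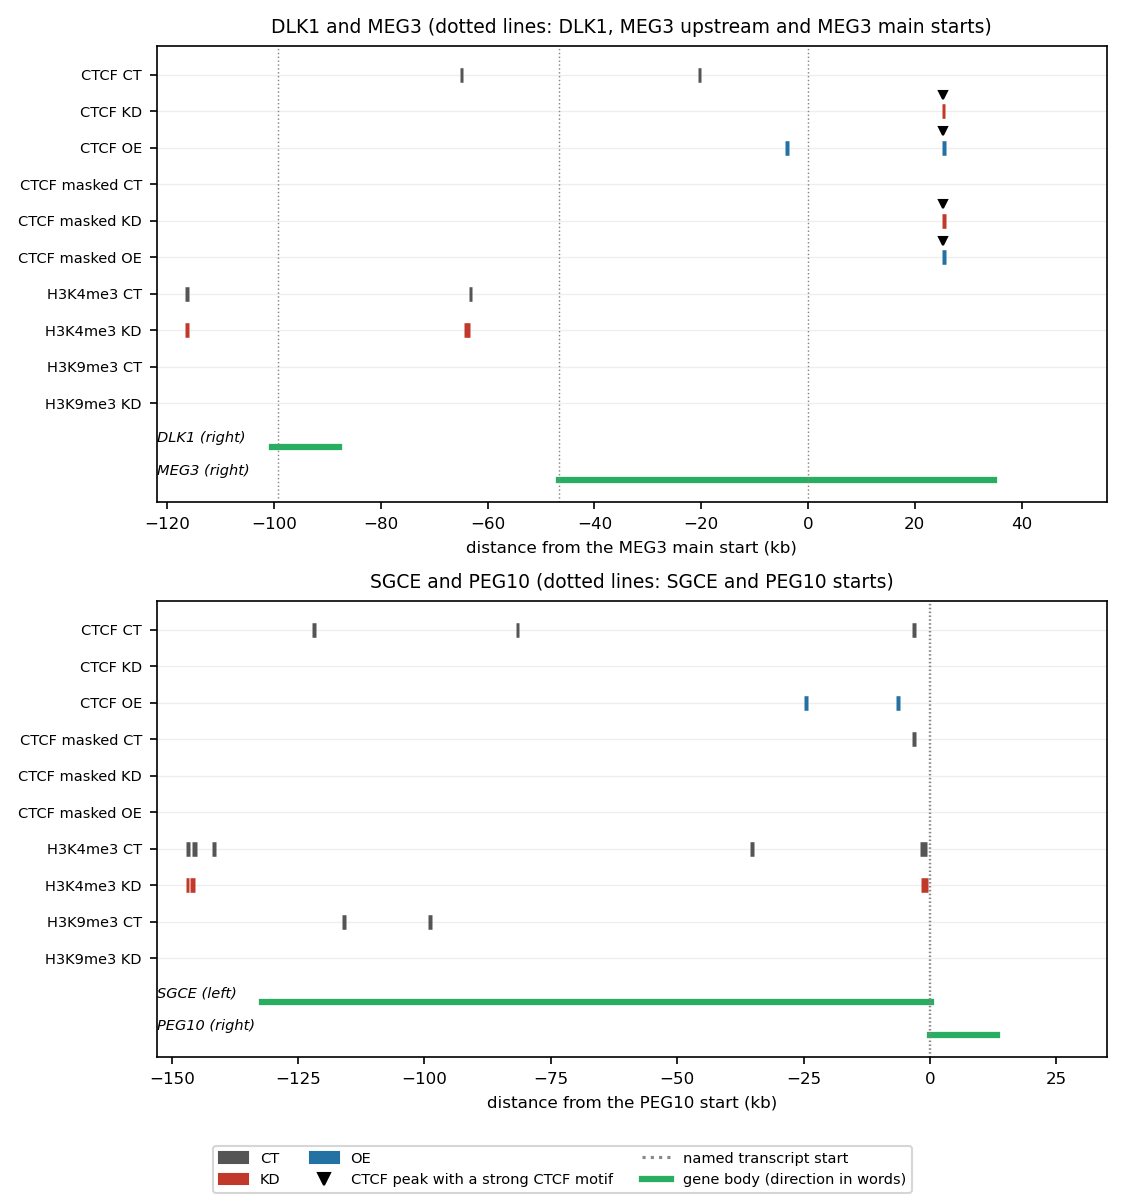
Peaks of 10 lists along DLK1 and MEG3 (top, distance in kb from the MEG3 main start) and along SGCE and PEG10 (bottom, distance in kb from the PEG10 start). Triangles mark CTCF peaks with a motif at the strict threshold (p below 0.00001), and narrow peaks are drawn at a minimum width. The MEG3 exon site 25038 bp downstream of the main start is held by KD and OE, and no KD CTCF peak lies at SGCE or PEG10.

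SNRPN, which encodes a splicing protein and whose canonical start lies at the imprinting centre of the Prader-Willi and Angelman region, held CTCF peaks in CT alone. A site at chr15:24847164-24847378, 9.17 kb upstream of the upstream start SNRPN-203, was called in CT on unmasked (199 bp) and repeat-masked reads (215 bp). The 3 other sites were repeat-masked CT peaks of 211 or 212 bp, lying 30.3 kb downstream of SNRPN-203 and 15.6 and 30.2 kb downstream of the canonical start. None of the 4 had a CTCF motif. The narrowest widths in the unmasked and repeat-masked CT lists are 199 and 211 bp, and every CTCF peak at SNRPN lay within 4 bp of them. The canonical start, in a CpG island of 1267 bp, had no H3K4me3 peak, the nearest lying 472 kb downstream in both CT and KD. NDN, a growth suppressor of the MAGE family in the same domain, held no peak. The nearest CTCF peaks to its start were 38.1 kb downstream in KD and 37.9 kb in OE, whereas the nearest of CT was 180 kb upstream. H3K4me3 came as near as 26.6 kb upstream in CT and 26.7 kb in KD.

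MEST, which encodes a protein of the alpha/beta-hydrolase fold expressed from the paternal copy, held 1 peak in all, a repeat-masked CT CTCF peak of 211 bp without a motif, 11961 bp upstream of the upstream start. Its canonical start, in a CpG island of 889 bp with 88 CpG in 1 kb, lay 50.3 kb from the nearest H3K4me3 peak in CT and 50.4 kb in KD. PEG3, a paternally expressed zinc finger gene, shares its start with the zinc finger gene ZIM2, and both were empty in all lists. From this start the nearest H3K4me3 peak lay 94984 bp downstream in CT and 92212 bp in KD. The nearest unmasked CTCF peak lay 187 kb away in CT, 91.9 kb in KD and 94.9 kb in OE. The PEG3-ZIM2 window nevertheless held 13 strong motif matches, 2 of them over 20 bits (20.79 and 20.14).

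Over all members, 5 of 115 strong motif matches (4.35%) lay under a CTCF peak of any of the 6 lists, against 12.1% of the 247288 strong matches in the genome. GNAS had 4 of 18 and DLK1-MEG3 had 1 of 45. There were 0 of 23 at SNRPN-NDN, 0 of 13 at PEG3-ZIM2, 0 of 9 at PEG10-SGCE and 0 of 7 at MEST. Of the 105 CpG islands of at least 300 bp in the windows, 8 held H3K4me3 in CT and 8 in KD, where 13.2% and 13.6% of the 194068 islands of the genome did. A CTCF peak of any list lay in 1, at the GNAS-AS1 start, against 4.11% over the genome.

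**Figure D5:**
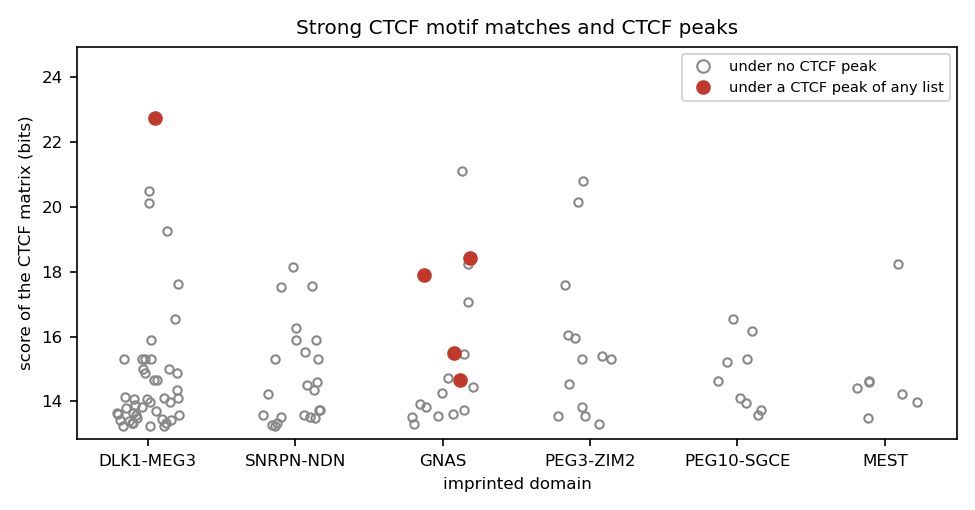
Score in bits of each of the 115 strong CTCF motif matches (p below 0.00001) by imprinted domain, with sideways scatter only for legibility. Filled points lie under a CTCF peak of any of 6 lists (4 at GNAS, 1 at DLK1-MEG3) and open points under none, among them 21.09 bits at GNAS and 20.79 bits at PEG3-ZIM2.

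The promoters of the members, taken as 2 kb on each side of each annotated transcript start and joined where they overlap, came to 31 windows. H3K4me3 lay in 7 of them in CT and 6 in KD, against 38.8% and 39.5% of promoter windows of protein-coding genes. All 7 belonged to GNAS, SGCE and PEG10, and the last 2 share 1 peak. The other 7 of the 10 genes had no H3K4me3 peak called at any promoter. At the canonical start 3 of 10 genes had a peak within 2 kb in CT and 3 in KD, where 71.7% and 72.3% of protein-coding genes did. These starts are rich in CpG. Of protein-coding genes with at least 30 CpG in the 1 kb around the start, a limit chosen after the members' values (47 to 152 for the 9 coding members) were seen, 88.7% had a peak in CT and 89.2% in KD.

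Bases under H3K4me3 at member promoters were compared between CT and KD. The median log2 ratio of KD over CT was 0.01 with a pseudocount of 100 bp, and 0.01 over all promoters with a peak. At the 5′ window of GNAS the log2 ratio was 0.45 (862 bp in CT, 1218 bp in KD). In the joined window that holds both the A/B and the Gs-alpha start it was 0.01 (2167 and 2188 bp). No window gained over 1.5-fold, as 6.42% of promoters did. The SGCE exon window, with 352 bp in CT and 0 in KD, was the only one to lose over 1.5-fold, as 3.49% did.

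Neighbours of the same domains, from a list of 35 genes of which 34 are in the annotation, were described in the same way. Some of the 34 are non-coding, such as GNAS-AS1, and the shares set beside them are of protein-coding genes only. At 18 of the 34 the canonical promoter had H3K4me3 in CT, and at the same 18 in KD, against 71.7% and 72.3% of protein-coding genes. Among those that share a control region with a member, GNAS-AS1 (1309 bp in CT, 1398 bp in KD) and STX16, a syntaxin gene that holds a control element of GNAS (2437 and 2282 bp), had the mark. In the DLK1-MEG3 domain the canonical promoters of RTL1, a retrotransposon-derived gene (788 and 729 bp), and DIO3, a thyroid hormone deiodinase (42 and 78 bp), had it as well. MESTIT1, antisense to MEST, SNURF, which shares the SNRPN start, and MIMT1, which starts opposite PEG3, had none. As a check of the cell type, H3K4me3 lay at the promoters of 6 of 6 genes used in every cell and at PAX2 and LHX1 of the embryonic kidney in CT and KD, and at 0 of 7 genes of other tissues.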

How the data were processed

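The members and gene lists were chosen with earlier results of these data known. The deposited files hold genome positions of peaks on hg38 and no other unit, since the authors gave no score, fold or coverage. The submitters' processing notes name Bowtie2, MACS2 and bedtools. Per the labels, peaks were called at p below 0.0025 for unmasked CTCF in CT and KD, 0.005 in OE and 0.001 otherwise, whereas the methods state 0.005 for all unmasked reads. The antibodies given for H3K9me3 and H3K27me3 are exchanged between methods and labels, and lists were used by title. Depth behind a peak is unknown from the lists, and a peak missing from a list is not shown to be absent from the cells. Starts were read as 0-based and printed 1-based. Unmasked CTCF peaks as narrow as 199 bp leave a shift of 1 bp possible.

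Genes came from GENCODE 44. Every member is named, and neighbours where they hold a control region or where their promoter differed. The rule gave positions for CTCF sites near starts, between DLK1 and MEG3, or with a motif and a difference between CT and KD. The positions of other sites, the matches outside peaks and the neighbours MAGEL2, MKRN3, SNHG14, ATP10A, CASD1, RTL1 and DIO3 were chosen after their values were seen. A marker gene and 1 motif sequence that the rules named are not reported here. The CTCF matrix (14 columns) was learned from 12483 repeat-masked CT peaks that overlap KD and OE peaks. A motif is a match on either strand at p below 0.0001 (8.28 bits), a strong one at p below 0.00001 (13.22 bits). CpG islands were joined 200-bp windows with at least 50% GC and an observed to expected ratio of at least 0.6, of at least 300 bp in all. Code was tested on simulated data (Python 3.11.15, numpy 2.4.6, pandas 2.3.3, scipy 1.17.1). The 6 lists of exclusive CTCF peaks were not used. Alternatives changed flanks, promoter windows, pseudocounts, motif thresholds and peak sets, and 1 (basic transcripts) was chosen after seeing the data.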

Additional observations from a re-analysis of the deposited data

How the results depend on the processing

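Of 59 values recomputed under alternatives, 46 stayed within 1.5 times the reported count, within its interval or within 0.1 on the log2 scale. No paired analysis was possible because there was 1 library per condition. The 16 CTCF sites became 8 on repeat-masked lists and 9 with the widest 20000 peaks of each list. Sites held by CT, KD and OE (0) became 1 with a flank of 50 kb and 1 on repeat-masked lists. Sites held by KD and not CT (5) became 10 with a flank of 50 kb, 1 on repeat-masked lists and 3 with the widest peaks, so the order of CT-only (7, 6 and 5 there) and KD-only sites turned with the flank of 50 kb. With 1 start per gene, promoters with H3K4me3 were 3 in CT and 3 in KD, because only 10 windows then remain. With a flank of 50 kb, H3K9me3 peaks became 4 in CT and 1 in KD, and H3K27me3 peaks 1 in CT and 1 in KD, through the longer windows. Leaving out peaks that overlap the input changed no count. On unmasked reads the OE list was called at a looser threshold than CT and KD, and the depth behind a peak is not known from the lists. Their part in the counts was not tested.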

Other observations

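At the neighbours MAGEL2 and MKRN3, next to NDN, the windows held 3 CTCF peaks of KD, 2 of OE and 0 of CT, in the unmasked and in the repeat-masked lists. MAGEL2 had H3K4me3 at its promoter (754 bp in CT, 706 bp in KD) and MKRN3 did not. Over the 34 neighbours, some of them non-coding, an unmasked CTCF peak lay in the window of 14 genes in CT, 16 in KD and 14 in OE. Of protein-coding genes, 74.1%, 81.3% and 78.7% had one. H3K9me3 lay in the window of 8 neighbours in CT and 2 in KD, against 28.0% and 13% of protein-coding genes. Neighbour windows can overlap each other and those of members, so that 1 peak may count for several genes. The 2 H3K9me3 peaks of CT at CASD1 are those given above for SGCE. SNHG14, the long host transcript of small nucleolar RNAs downstream of SNRPN, held 3 unmasked CTCF peaks of CT and 0 of KD and OE. ATP10A, a phospholipid transporter gene, held 2 of KD and 0 of CT and OE. Over the genome, 23.5% of unmasked CTCF sites were held by CT alone, 17.8% by KD alone and 30.5% by KD and not CT.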
